A study of Mus musculus with 12 samples.

Results

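The HoxC cluster is the group of homeobox genes Hoxc4, Hoxc5, Hoxc6, Hoxc8, Hoxc9, Hoxc10, Hoxc11, Hoxc12 and Hoxc13 together with Hotair, a long noncoding RNA gene. It was followed through 8 peak lists from chromatin immunoprecipitation with sequencing (ChIP-seq) as every listed peak that overlapped the 240 kb of mm9 that start at chr15:102720001. This rule took 166 peaks of the 128880 in the 8 lists. The lists came from primary mouse embryonic fibroblasts (MEFs), which are low-passage connective tissue cells, on a hybrid 129/B6 background. WT cells were lincRNA-p21+/+ and KO cells were lincRNA-p21-/-, and each genotype was either mock treated or given doxorubicin, a drug that damages DNA, for 24 h, its dose being labelled as 0.5 mM. The histone marks H3K4me3 and H3K27me3 were each profiled once in the 4 conditions. The numbers of embryos or cultures behind a library are not given in the sources used here. Since each mark and condition had 1 library, no difference below has a replicate check, a test or a p-value, and unequal read depth or enrichment cannot be told apart from it.

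Hox genes encode transcription factors that give cells their position along the body axis, and they lie in clusters whose order follows that axis. Cells that keep a Hox gene silent usually carry H3K27me3 over it, laid down by Polycomb repressive complex 2, while H3K4me3 marks the promoters of active or poised genes. Fibroblasts hold on to a Hox pattern that reflects the body site they came from. Within this cluster Hoxc13, known for its role in hair and nails, sits at the posterior end, and Hoxc12, Hoxc11 and Hoxc10 act in the lumbar and hindlimb region. Hoxc9 and Hoxc8 pattern the thorax, and Hoxc6, Hoxc5 and Hoxc4 act further towards the neck. LincRNA-p21 is itself a noncoding transcript that p53 switches on, and the series title concerns its part in the expression of Polycomb target genes.

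The RefSeq table of build GRCm38.p6 orders the members as Hoxc13, Hoxc12, Hotair, Hoxc11, Hoxc10, Hoxc9, Hoxc8, Hoxc6, Hoxc5 and Hoxc4. In mm9 the Hoxc13 side has the lower coordinates and the Hoxc4 side the higher ones, followed by a flank. No mm9 gene positions were used, so no peak is assigned to a single gene and fibroblast marker genes were not checked. Results are placed by distance from the lower end of the window. After the values had been seen, the window was divided into a lower stretch of 100 kb on the Hoxc13 side (chr15:102720001-102820000), a middle stretch of 60 kb towards the Hoxc4 side (chr15:102820001-102880000) and an upper stretch of the last 80 kb, from chr15:102880001.

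Of the 10 members, 1 matched the RefSeq promoter table. Its sequence is shown because CG pairs are a feature of promoters that carry these marks, and the CG pairs are in capitals. It lies at chr15:103034145-103034444 on the plus strand of GRCm38.p6, coordinates that were not converted to mm9.
Hoxc4: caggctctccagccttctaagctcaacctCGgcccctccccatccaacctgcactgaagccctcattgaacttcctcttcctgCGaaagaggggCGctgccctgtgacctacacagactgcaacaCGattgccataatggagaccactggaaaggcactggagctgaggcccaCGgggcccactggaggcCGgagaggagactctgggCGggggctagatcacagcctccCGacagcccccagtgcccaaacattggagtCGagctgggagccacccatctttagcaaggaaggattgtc
This stretch of 300 bases held 9 CG pairs, a motif that reads the same on both strands, and 60.3% G or C. Of the 32851 promoters in the table, 94.6% held at least 1 CG pair and 45.8% held 9 or more. The median of the table was 7 CG pairs. The 23 promoters of 21 genes of the HoxA, HoxB and HoxD clusters in the same table held 4 to 45, with a median of 15. The Hoxc4 promoter thus had more CG pairs than the median promoter and fewer than the median of the other Hox promoters.

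The 8 lists held 14326 to 17828 peaks. Genome-wide H3K27me3 cover was 48.0 Mb in WT mock and 39.0 Mb in WT doxorubicin cells, and 36.3 and 35.9 Mb in the KO pair. H3K4me3 cover was 33.4 and 32.1 Mb in the WT pair and 27.1 and 29.2 Mb in the KO pair. The peak score is the authors' own value, minus 10 times the log10 of the MACS p-value, and no list held a score under 80. Read counts were not analysed here, so depth is unknown. Scores are used below to describe and rank peaks inside a list.

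With all listed peaks, H3K27me3 covered most of the HoxC window in mock-treated cells and much less of it after doxorubicin, in both genotypes. Its peaks covered 189.6 kb of the window in WT mock against 116.2 kb in WT doxorubicin cells, and 162.2 kb in KO mock against 90.9 kb in KO doxorubicin cells. Both mock values lay above both doxorubicin values, and within each treatment the WT value was the longer. With doxorubicin the cover was 61.3% of its mock length in WT and 56.1% in KO cells. Over the whole lists the same ratios were 81.2% and 99.0%, so that in KO cells the shorter cover of HoxC had no counterpart in the list total. Mock peaks covered 67.6% of the window in KO and 79.0% in WT cells, so much sharing between treatments is built in. The share over the whole lists was not computed. Of the doxorubicin cover in the window, 97.7% in KO and 98.8% in WT cells was shared with the mock cells of that genotype. At a score minimum of 150 these shares were 97.7% and 27.4%, since that minimum drops an 83.2-kb WT mock peak described below.

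**Figure D1:**
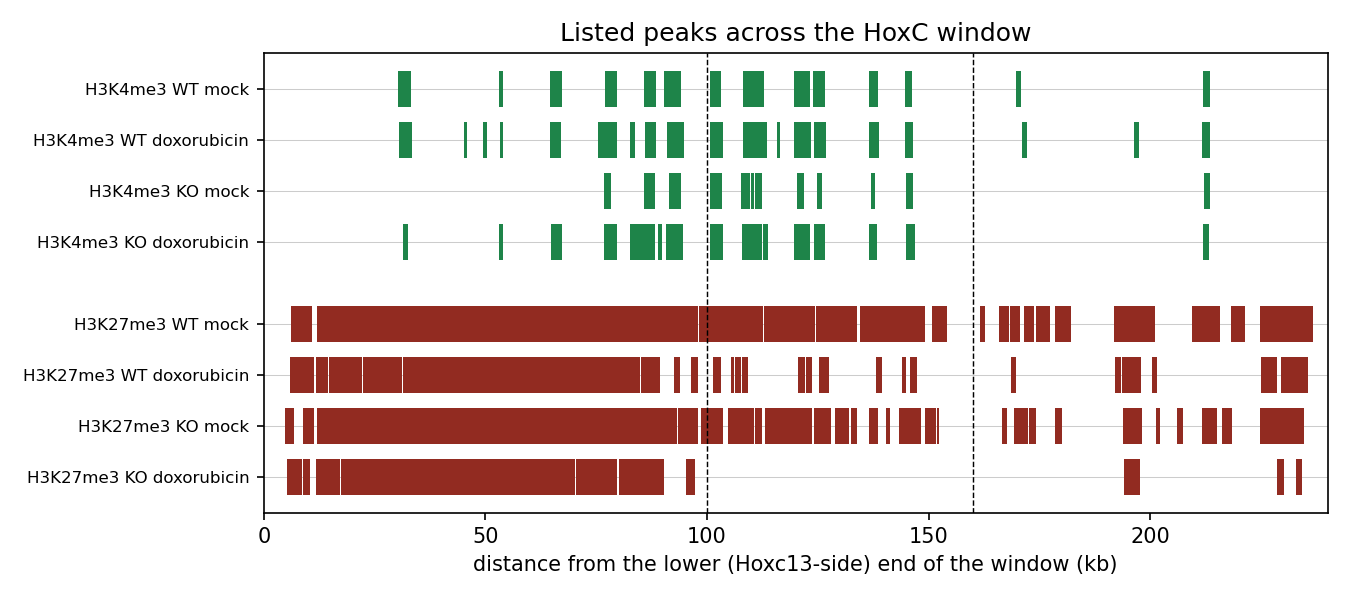
Each bar is a listed peak of H3K4me3 (green) or H3K27me3 (red) in 1 of 8 libraries, placed by distance in kb from the Hoxc13-side end of the HoxC window; dashed lines bound the middle stretch and narrow gaps may not show. H3K27me3 covers most of the lower stretch in the 4 libraries and has 0 peaks in the middle stretch in KO doxorubicin cells.

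In the lower stretch, on the Hoxc13 side, H3K27me3 was almost complete in every condition when all listed peaks were counted. It covered 92.6 kb of the 100 kb in WT mock against 84.8 kb in WT doxorubicin cells, and 91.9 kb in KO mock against 84.3 kb in KO doxorubicin cells. KO minus WT was -0.703 kb in mock and -0.46 kb in doxorubicin-treated cells. Most of this was a domain of 86.3 kb at chr15:102731780-102818052, the longest H3K27me3 region of the window, which was listed as 2 peaks in WT mock against 13 in WT doxorubicin cells, and as 5 peaks in KO mock against 7 in KO doxorubicin cells. Its upper edge differed with treatment. In the bin from 90 to 100 kb, H3K27me3 covered 9.92 kb in WT mock and 9.47 kb in KO mock, but 2.81 kb in WT doxorubicin and 2.19 kb in KO doxorubicin cells.

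The scores of the pieces differed widely inside this domain. The widest peak of the WT mock list here, 83.2 kb at chr15:102734883-102818052, had a score of 100.04, above 21.2% of its list. In KO mock cells the highest-scoring piece, chr15:102731988-102754892, reached 2370.91 and stood above 98.9% of its list. The leading pieces of WT doxorubicin (chr15:102734659-102742213, score 1767.19) and KO doxorubicin cells (chr15:102790364-102797114, score 1474.16) stood above 98.4% and 96.9% of their lists. The length of WT mock cover depended on that wide, low-scoring peak. With peaks scored at 150 or more, WT mock cover was 9.41 kb in the lower stretch and 102.3 kb in the window, doxorubicin minus mock in WT was -2.5 kb in place of -73.4 kb, and KO minus WT in mock cells turned from -27.4 to 49.4 kb.

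The middle stretch, towards the Hoxc4 side, held the clearest contrast between treatments, but its borders were set after the values had been seen. H3K27me3 covered 51.6 kb of its 60 kb in WT mock and 40.7 kb in KO mock cells, against 14.4 kb in WT doxorubicin and 0 kb in KO doxorubicin cells. The mock lists had 7 and 15 peaks here, with median scores of 694.11 and 279.78. The WT doxorubicin list kept 10 narrow peaks with a median width of 1422.5 bp and scores of 82.65 to 200.6. In KO doxorubicin cells no peak was listed from chr15:102817292 to 102913978, a gap of 96.7 kb, whereas the longest gaps of the other lists were 9.51 kb in WT mock, 23.7 kb in WT doxorubicin and 14.0 kb in KO mock cells. The peak numbers of the KO doxorubicin list skip 7 values across its gap, so up to 7 numbered peaks may have been left out there, and their scores were not analysed here. Peaks scored under 150 do not carry this contrast: without them the middle stretch had 51.6 kb in WT mock and 4.96 kb in WT doxorubicin cells, and 33.6 and 0 kb in the KO pair.

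Bins of 10 kb were used to set the window beside the rest of the genome, and a bin was called where covered length differed by at least 5 kb. With doxorubicin in KO cells, H3K27me3 was lost in 8 of the 24 bins of the window, against 0.192% of all bins of the genome with any H3K27me3 in these lists. These 8 bins were 25.8% of the 31 called in the genome. They were the 6 neighbouring bins from 90 to 150 kb and those starting at 170 and 210 kb. Of the bins with at least 5 kb in KO mock cells, which alone could be called, 8 of 17 in the window and 1.45% of 2138 in the genome were lost. With doxorubicin in WT cells 6 of 24 bins were lost, against 0.528% of bins in the genome, and 6 of 20 that could be called against 2.88% of 3163. All 6 were among the 8 of KO cells. No bin of the window gained H3K27me3 with doxorubicin in WT or KO cells, where 0.0812% and 0.247% of bins in the genome did. Gains had little room, since 20 of the 24 bins in WT mock and 17 in KO mock cells already held at least 5 kb. The absence of gains is therefore not read as a result. With peaks scored at 150 or more, 8 bins were gained in WT cells.

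**Figure D2:**
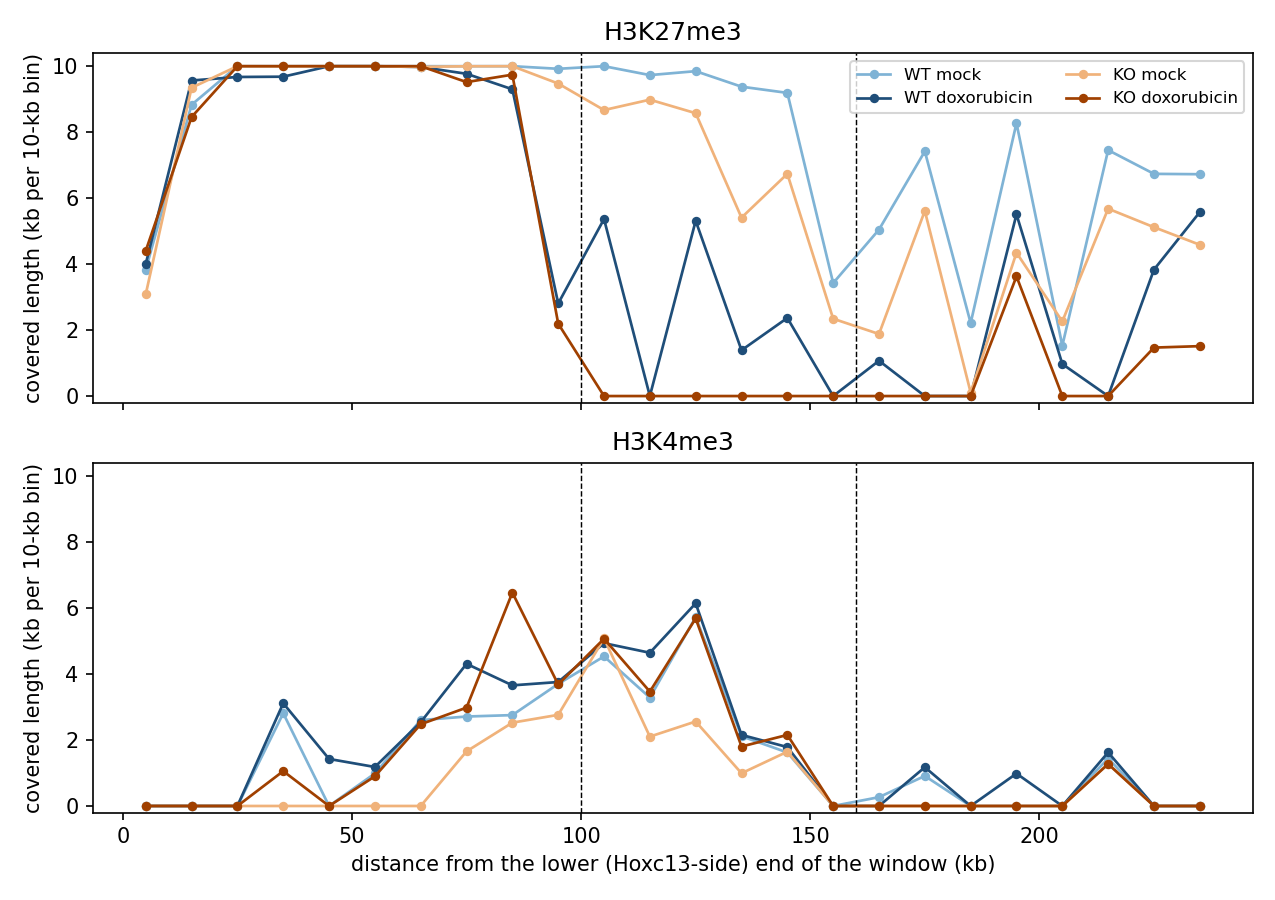
Covered length in kb of each 10-kb bin (y axis) is plotted by distance in kb from the Hoxc13-side end of the HoxC window (x axis), for H3K27me3 (top) and H3K4me3 (bottom); each line is 1 library and dashed lines bound the middle stretch. The 4 H3K27me3 lines run together from 10 to 90 kb and then part, with both doxorubicin lines below both mock lines from 90 to 180 kb.

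The upper stretch held scattered H3K27me3 peaks, and here too the treated cells had less. Cover was 45.4 kb of 80 kb in WT mock against 17.0 kb in WT doxorubicin cells, and 29.6 kb in KO mock against 6.61 kb in KO doxorubicin cells. The mock lists had 11 and 10 peaks, and the doxorubicin lists 9 and 4. The highest-scoring H3K27me3 peak of the window in WT mock cells was here, at chr15:102911729-102921034, with a score of 1159.67. H3K27me3 was found at that place in the 4 conditions, and likewise at chr15:102944662-102956725 near the upper end. Between them, chr15:102929508-102935662 had H3K27me3 in both mock lists, with scores of 584.73 in WT and 417.31 in KO, and in neither doxorubicin list.

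With all listed peaks, KO and WT cells differed less in H3K27me3 cover than doxorubicin and mock cells did (-27.4 and -25.2 kb against -73.4 and -71.3 kb). In mock cells the KO cover of the window was 85.6% of the WT cover, above the 75.6% of the whole lists. No bin was lost or gained between the genotypes in mock cells, against 0.443% and 0.0539% of bins in the genome. Of the 24 bins, 20 already held at least 5 kb in WT mock cells, so few could be gained. With peaks scored at 150 or more, where KO mock cover was the longer by 49.4 kb, 9 bins were gained and 2 lost. In doxorubicin-treated cells KO cover was 78.3% of WT, below the 92.2% of the whole lists. Here none of 19 bins was gained, against 0.0425% of bins in the genome, but 12 of them already held at least 5 kb in WT cells. Lost were 2 of 19, at 100 to 110 kb and 120 to 130 kb, against 0.115% of bins in the genome. In those bins WT doxorubicin cells had 5.37 and 5.31 kb of H3K27me3 and KO doxorubicin cells had 0 kb, so that both lay just past the threshold.

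Counted as peaks, H3K27me3 losses with doxorubicin were more frequent in the window than in the list as a whole. The margin was wide in KO cells and, at an overlap of 1 bp, narrower in WT cells. A peak counts as lost when the second list has no peak overlapping it by 1 bp or more, and as gained in the opposite case. With doxorubicin 23 of 32 peaks were lost in KO cells (71.9%, against 34.1% of the list) and 10 of 21 in WT cells (47.6%, against 35.4%). No peak was gained with doxorubicin in KO or WT cells, against 35.3% and 29.3% of the lists. Mock peaks already covered 67.6% of the window in KO and 79.0% in WT cells, which left little room for a peak without overlap. The same limit holds for gains between genotypes, as WT doxorubicin peaks covered 48.4%. The highest-scoring losses in KO cells were 3 peaks of the middle stretch, chr15:102824700-102830550 (score 736.92), chr15:102833138-102843662 (709.37) and chr15:102820785-102823541 (617.01). Those in WT cells were chr15:102929508-102935662 (584.73), chr15:102870665-102874089 (370.08) and chr15:102898597-102902214 (365.29). In KO against WT mock cells 3 of 21 peaks were lost (14.3%, against 36.3%) and 2 of 32 gained (6.25%, against 25.5%), all 5 scored under 150. KO mock peaks covered 67.6% of the window, so a WT mock peak had little room to be lost. These low shares are therefore not read as a result. At an overlap of 50% of the peak, this comparison had 9 lost (42.9%, against 50.6% of the list) and 5 gained (15.6%, against 31.5%). With doxorubicin 16 WT peaks were then lost (76.2%, against 48.6%). When a peak within 1 kb counted as shared, 8 WT peaks were lost with doxorubicin (38.1%, against 28.6%). In KO against WT doxorubicin cells 16 of 33 were lost (48.5%, against 35.3%), led by chr15:102945104-102947166 (407.02), and none of 14 was gained, against 32.2%.

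H3K4me3 followed another course: it was shortest in KO mock cells and longer in both doxorubicin lists than in the matching mock list. It covered 35.5 kb of the window in WT mock against 43.4 kb in WT doxorubicin cells, and 20.6 kb in KO mock against 37.0 kb in KO doxorubicin cells. With doxorubicin the cover was 122% of mock in WT and 180% in KO cells, beside 96.1% and 108% over the whole lists. The WT ratio was 110% with equal numbers of highest-scoring peaks (3.32 kb in place of 7.97 kb) and 150% with peaks less than 3 kb apart joined (19.0 kb). KO cover was 58.1% of WT in mock and 85.2% in doxorubicin-treated cells, beside 81.1% and 91.1%. With equal numbers of peaks the last ratio was 96.3%, beside 94.5% over the lists (-1.35 kb in place of -6.42 kb), and with peaks joined it was 75.6% (-14.0 kb). The KO mock list had 14 peaks here, as many as WT mock, but its median peak was 1445.5 bp wide against 2577.5 bp. The doxorubicin lists had 21 peaks in WT and 17 in KO cells. In the lower stretch H3K4me3 covered 15.6 kb in WT mock and 20.0 kb in WT doxorubicin, but 6.95 kb in KO mock against 17.6 kb in KO doxorubicin cells. The middle stretch had 17.3 and 19.7 kb in the WT pair and 12.4 and 18.2 kb in the KO pair, and the upper stretch 1.27 to 3.78 kb in any list. No 10-kb bin of H3K4me3 was called in any comparison, and over the genome 0% of bins were called with doxorubicin in either genotype, 0.00577% in KO against WT mock cells and 0% in KO against WT doxorubicin cells. Only 1 to 3 bins of the window held at least 5 kb of H3K4me3 in any list, so this threshold could hardly be met.

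Joined over the 4 lists, the H3K4me3 peaks formed 21 regions, of which 10 were present in the 4 conditions, 3 in 3, 1 in 2 and 7 in 1. Genome-wide 78.8% of H3K4me3 regions were in the 4 lists and 9.79% in 1 list. Of these 10 constant regions, 9 lay between 75.3 and 147.0 kb along the window and 1, chr15:102931774-102933445, in the upper stretch. Every region below 75.3 kb, at the Hoxc13 end, was missing from the KO mock list.

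The 5 H3K4me3 regions of the Hoxc13 end showed this one by one. The first, chr15:102750317-102753555, had a score of 1075.52 in WT mock, 1981.58 in WT doxorubicin and 151.07 in KO doxorubicin cells, and no peak in KO mock cells. It stood above 39.1% of the list in WT mock and 60.1% in WT doxorubicin cells, but above 8.92% in KO doxorubicin cells. The nearest KO mock peak to it was 43643 bp away. A weaker region, chr15:102772980-102774049, had scores of 97.0, 123.66 and 137.14 in WT mock, WT doxorubicin and KO doxorubicin cells, and none in KO mock cells. The region chr15:102784486-102787257 had 362.66, 686.47 and 525.92 in that order, and again none in KO mock cells. The remaining 2, chr15:102765074-102765931 and chr15:102769433-102770418, were in the WT doxorubicin list alone, with scores of 160.49 and 136.34. H3K4me3 was thus listed over 3 of these 5 places in WT mock against 5 in WT doxorubicin cells, and 0 in KO mock against 3 in KO doxorubicin cells, while H3K27me3 covered at least 90.2% of each of the 5 in every condition. In WT mock cells that cover was the 83.2-kb peak scored 100.04, and with peaks scored at 150 or more it was 0% there and still at least 90.2% in the other lists.

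**Figure D3:**
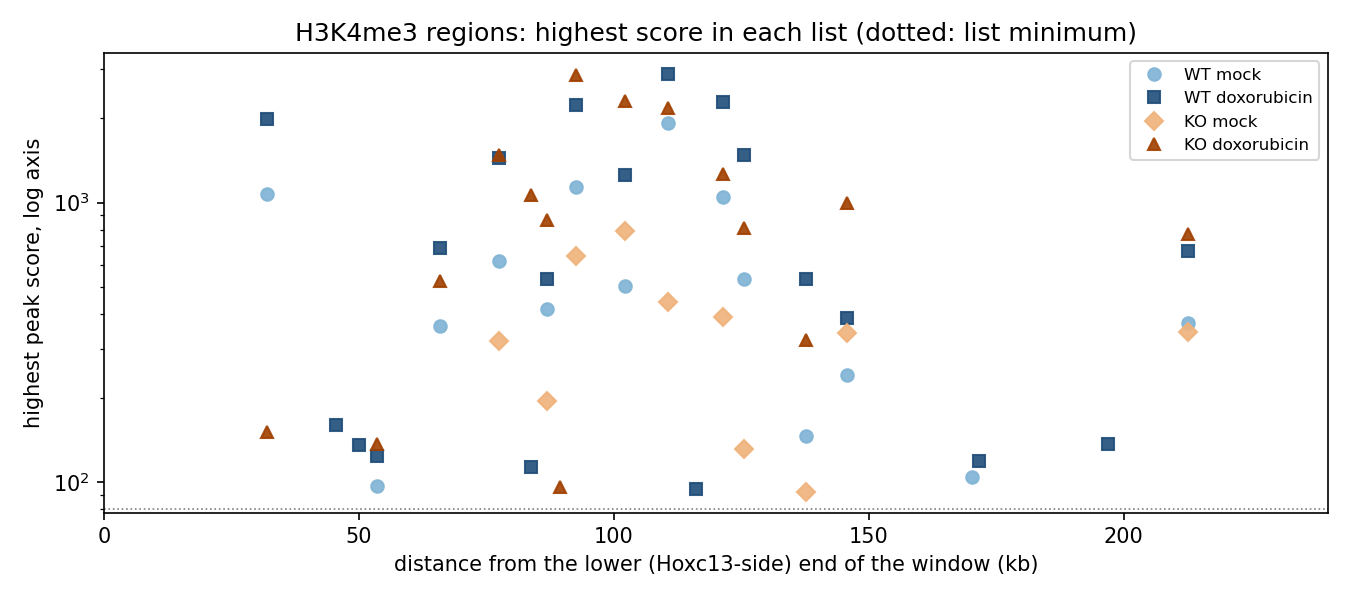
Points give the highest H3K4me3 peak score (log y axis, no unit) of each region in each library, by distance in kb from the Hoxc13-side end of the HoxC window (x axis); a library without a peak has no point, and scores are to be ranked within 1 library. KO mock cells have no point below 75.3 kb, where WT doxorubicin cells have 5.

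Among the 10 constant regions the order by score differed between lists. The highest H3K4me3 score of the window was at chr15:102828019-102832836 in WT mock (1925.25) and at chr15:102828132-102833437 in WT doxorubicin cells (2884.0), the same region of the middle stretch. In KO mock cells it was at chr15:102820576-102823486 (788.59), and in KO doxorubicin cells at chr15:102810829-102814512 (2846.97), just below the middle stretch. These leading peaks stood above 59.7%, 77.1%, 37.5% and 60.9% of their lists, so that none was among the strongest H3K4me3 peaks of its library. Scores of the 10 regions ranged from 146.14 to 1925.25 in WT mock, 387.57 to 2884.0 in WT doxorubicin-treated, 92.55 to 788.59 in mock KO and 322.96 to 2846.97 in doxorubicin-treated KO cells. The median score of the whole H3K4me3 list was 1511.8, 1525.9, 1161.9 and 2140.6 in that order. The lists differ in length and their depth is unknown, so no change is read from these scores.

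Counted as peaks, H3K4me3 in the window was gained with doxorubicin and lost in KO mock cells more often than in the lists as a whole. The peaks of the window scored low, with medians of 459.8 against 1511.8 over the list in WT mock and 531 against 1525.9 in WT doxorubicin cells. In the KO pair they were 267.8 against 1161.9 in mock and 867.2 against 2140.6 in doxorubicin cells. The list shares thus come from higher-scoring peaks, and shares of peaks with like scores were not computed. With doxorubicin 6 of 17 peaks were gained in KO cells (35.3%, against 8.84% of the list) and 6 of 21 in WT cells (28.6%, against 8.25%). The leading gains in KO cells were chr15:102802549-102805019 (score 1067.19), chr15:102784775-102787252 (525.92) and chr15:102751487-102752543 (151.07), all in the lower stretch. A KO mock peak was 667 bp from the first of these, and 3 of the 6 KO gains were left when a peak within 1 kb counted as shared (17.6%, against 7.72% of the list). The 6 gains in WT cells scored 94.31 to 160.49, and at most 10.7% of the list scored lower than any of them. No peak was lost with doxorubicin in KO cells, against 2.69% of the list. In WT cells 1 of 14 was lost (7.14%, against 2.21%), 142 bp from a WT doxorubicin peak. In KO against WT mock cells 4 of 14 peaks were lost (28.6%, against 9.32%) and none gained, against 1.94%. The losses were led by chr15:102750317-102753127 (1075.52) and chr15:102784655-102787257 (362.66). In KO against WT doxorubicin cells 6 of 21 were lost (28.6%, against 11.9%), none scored above 252.33, and 1 of 17 was gained (5.88%, against 4.41%).

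With all listed peaks, almost all H3K4me3 of the window lay under H3K27me3 in mock cells, and much less of it did after doxorubicin. Bases under peaks of both marks came to 34.8 kb in WT mock against 26.7 kb in WT doxorubicin cells, and 20.3 kb in KO mock against 13.7 kb in KO doxorubicin cells. This was 98.1%, 61.5%, 98.4% and 37.1% of the H3K4me3 cover in the window, far above the 9.65%, 10.3%, 7.3% and 5.79% of the whole lists. H3K27me3 itself covered 79.0%, 48.4%, 67.6% and 37.9% of the window in that order, so much overlap is built in. In KO doxorubicin cells the share was no higher than this cover. With peaks scored at 150 or more, the share in the window was 52.0% (16.2 kb) in WT mock and 40.2% (15.1 kb) in WT doxorubicin cells, and 93.4% and 32.5% in the KO pair. In the middle stretch the share was 97.7% in WT mock against 45.3% in WT doxorubicin cells, and 97.7% in KO mock against 0% in KO doxorubicin cells. At the minimum of 150 it was 97.4% and 17.5% in the WT pair and 88.7% and 0% in the KO pair. In the lower stretch, with all peaks, it was 100% and 84.1% in the WT pair and 99.4% and 78.2% in the KO pair. Bulk ChIP-seq does not show whether both marks were on the same copies of the cluster or in different cells.

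**Figure D4:**
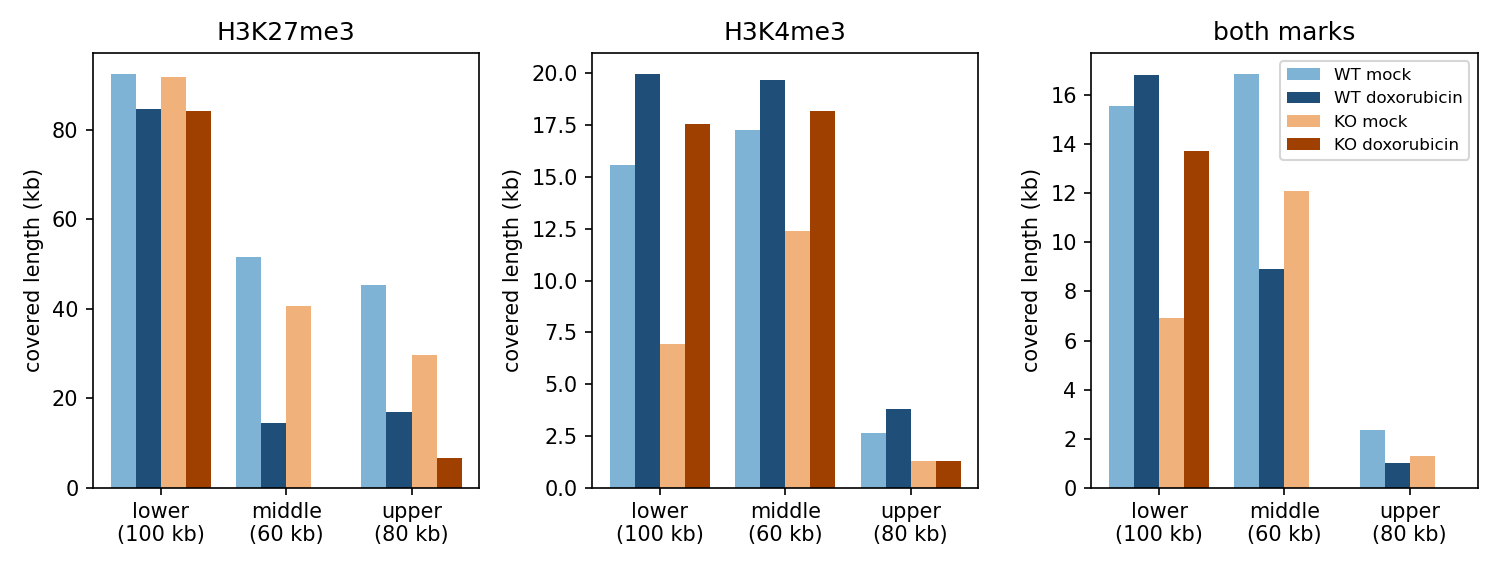
Bars give covered length in kb (y axis from 0) in the lower, middle and upper stretches of the HoxC window for H3K27me3 (left), H3K4me3 (centre) and bases under both marks (right), 1 bar per library. In the middle stretch H3K27me3 reaches 51.6 kb in WT mock and 0 kb in KO doxorubicin cells, while H3K4me3 reaches 17.3 and 18.2 kb.

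Region by region, H3K4me3 was retained where H3K27me3 was no longer listed. Of the 15 H3K4me3 regions present in KO doxorubicin cells, 8 had no base of H3K27me3 there. Those 8 had been 83.0 to 100% covered by H3K27me3 in KO mock cells and 94.8 to 100% in WT mock cells, and were 0 to 73.3% covered in WT doxorubicin cells. In the mock lists each H3K4me3 region of the window had some H3K27me3, 14 of 14 in WT and 10 of 10 in KO cells. In WT doxorubicin cells 16 of 19 had some. The share of all H3K4me3 regions of the lists with some H3K27me3 was not computed. Over the whole lists 5.79 to 10.3% of H3K4me3 bases lay under H3K27me3, so H3K4me3 without it was the usual state. A region without listed H3K27me3 may still hold peaks under the score floor of 80. With H3K27me3 peaks scored at 150 or more, 8 of 14 had some in WT mock, 10 of 10 in KO mock, 12 of 19 in WT doxorubicin and 7 of 15 in KO doxorubicin cells. The 8 regions without H3K27me3 in KO doxorubicin cells were then 56.6 to 100% covered in KO mock and 0 to 100% in WT mock cells.

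Set among the 240-kb windows of a genome-wide grid, the HoxC window had the longest H3K27me3 cover in WT mock cells with all listed peaks, at 189.6 kb beside 176.2 kb for the next. This cover included the 83.2-kb peak scored 100.04. With peaks scored at 150 or more it was 102.3 kb, and its rank at that minimum was not computed. In KO mock cells the HoxC window ranked 2, in WT doxorubicin cells 8 and in KO doxorubicin cells 15, out of 3631 to 3761 windows with the mark. Ranked by how much shorter the doxorubicin cover was than the mock cover, it came first in WT (-73.4 kb, the next -55.3 kb) and first in KO cells (-71.3 kb, the next -49.9 kb). With peaks scored at 150 or more, a minimum that drops the wide WT mock peak, the WT rank was 1166 and the KO rank 2. For H3K4me3 the longer cover with doxorubicin also ranked first in KO cells (16.4 kb, the next 8.97 kb) and second in WT cells (7.97 kb, the first 8.04 kb). With equal numbers of highest-scoring peaks the WT difference was 3.32 kb, and ranks were not computed for that setting. These ranks describe 8 libraries, and the window was chosen with earlier results of these data in view.

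Over the 4 libraries the HoxC window had the third longest mean H3K27me3 cover, 139.7 kb. The windows beside it in this order were chr19:44640001-44880000 (154.7 kb), chr11:96000001-96240000 (152.5 kb), chr2:164880001-165120000 (130.7 kb), chr7:86640001-86880000 (120.2 kb) and chr19:45120001-45360000 (118.5 kb). In the 2 windows of chromosome 19 and those of chromosomes 2 and 7, doxorubicin cover was 91.1 to 95.5% of mock in WT and 95.5 to 108.9% in KO cells. The window of chromosome 11 stood at 143.4% in WT and 73.4% in KO cells. HoxC, at 61.3% and 56.1%, had the lowest ratio of the 6 in both genotypes with all listed peaks. At a score minimum of 150 its ratio was 57.7% in KO cells, again the lowest of the 6, but 97.6% in WT cells, above 4 of the other windows.

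**Figure D5:**
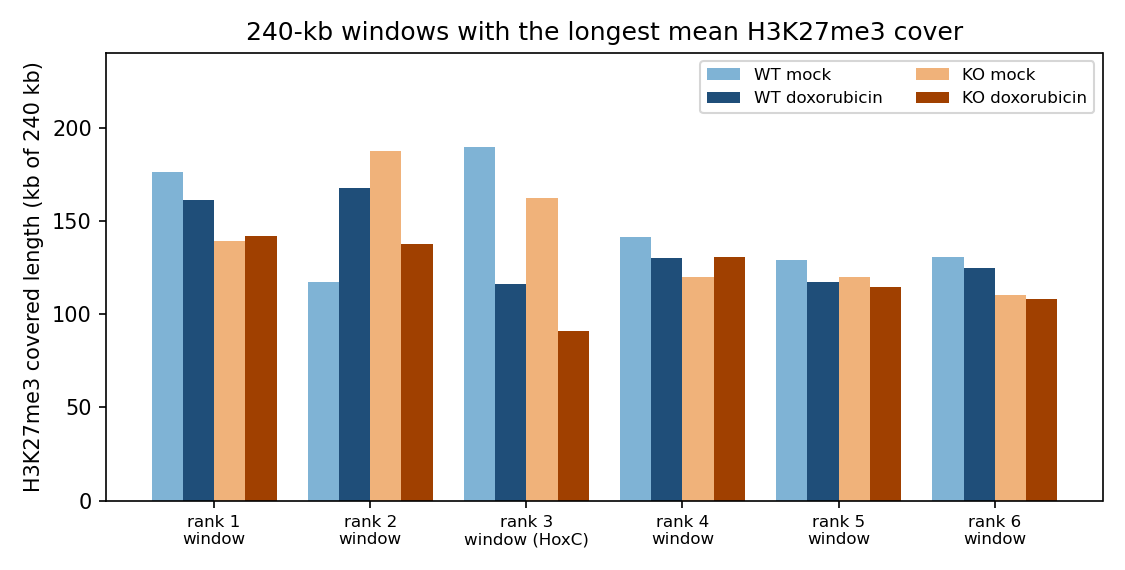
Bars give H3K27me3 cover in kb (y axis) in the 6 windows of 240 kb with the longest mean cover over the 4 libraries, ordered by that mean, 1 bar per library. With all listed peaks, the HoxC window at rank 3 has the highest WT mock bar, 189.6 kb, and the lowest KO doxorubicin bar, 90.9 kb.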

How the data were processed

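Peak lists of 8 ChIP-seq libraries were used; data of the 4 inputs were left out. The submitters' processing notes list MACS 1.4.2, Bowtie 0.12.7 and the build mm9. Per the file headers, the deposited score of a peak is minus 10 times the log10 of its p-value; the lists are 1 per library and hold no score under 80. Starts were taken to count from 0 and are printed counting from 1. Peaks that overlapped or touched were joined, cut at the window edges and summed as covered length; gains and losses were peaks without 1 bp of overlap in the other list. Bins of 10 kb were called at a difference of 5 kb. Groups came from the sample titles, with 1 library each, so no test was run. The members, gene lists and stretches were chosen with earlier results of these data known. Named peaks are the highest-scoring and widest per list, up to 3 gains and losses per comparison and, chosen after their values were seen, single regions of each stretch. Alternatives were score minimums of 100 and 150, equal numbers of top peaks, joining under 3 kb, uncut edge peaks, other overlap and bin rules and a shifted grid; the minimum of 150, the middle stretch and the ranks of differences were added after the data were seen. Rules for overlap, covered length, bins and bases under both marks were tested on simulated peaks. Some of these were built from a list of 14897 peaks and some were made up, and 11 of 11 checks returned what was put in. Ranks and regions joined over the lists were not tested in this way. Python 3.11.15, numpy 2.4.6, pandas 2.3.3 and matplotlib 3.10.9 were used.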

Additional observations from a re-analysis of the deposited data

Results flagged for a closer look

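H3K4me3 cover of the upper stretch with doxorubicin was 1.17 kb longer than in mock cells in WT and -0.01 kb different in KO cells. These values differ in sign, but the KO cover was nearly equal, 1282 bp in mock and 1272 bp in doxorubicin cells. With 1 library each, whether WT and KO differ in this was not tested.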

How the results depend on the processing

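No paired analysis was possible because each mark and condition had 1 library. Depth is unknown, and short or missing cover may mean peaks under the score floor. With a score of at least 150, H3K27me3 cover in WT mock was 102.3 kb, and the window differences were -2.5 kb (doxorubicin, WT), 49.4 kb (KO against WT, mock, reversed) and -12.2 kb (KO against WT, doxorubicin). By its construction this minimum drops the wide WT mock peak; for the other values below the cause was not tested. In the middle stretch that setting gave 4.96 kb in WT doxorubicin and KO minus WT of -17.9 kb in mock and -4.96 kb in doxorubicin cells. Length under both marks was 16.2 kb in WT mock and 15.1 kb in WT doxorubicin, and H3K4me3 in KO minus WT doxorubicin was -3.11 kb. H3K27me3 bins numbered 8 gained with doxorubicin in WT, 9 gained and 2 lost in KO against WT mock, and 1 lost in KO against WT doxorubicin. Ranks by H3K27me3 difference became 1166 and 2 for doxorubicin in WT and KO, and 2 and 55 for KO against WT in mock and doxorubicin; the H3K4me3 rank for the last was 224. With a score of at least 100 the H3K27me3 ranks for KO against WT were 11 in mock and 6 in doxorubicin, the H3K4me3 rank in KO mock was 118, 1 H3K27me3 bin was lost in KO against WT doxorubicin, and gained peaks were 1 (H3K27me3, KO against WT, mock) and 0 (H3K4me3, KO against WT, doxorubicin). Equal numbers of peaks gave H3K4me3 differences of 3.32 kb (doxorubicin, WT) and -1.35 kb (KO against WT, doxorubicin). Joining peaks less than 3 kb apart gave 19.0 and -14.0 kb for these, 40.8 kb under both marks in WT doxorubicin, and -1.64 kb of H3K27me3 for KO minus WT mock in the middle stretch. At an overlap of 50%, H3K27me3 peaks were 16 lost with doxorubicin in WT, 1 gained with it in KO, 5 gained and 9 lost in KO against WT mock and 3 gained in KO against WT doxorubicin, and H3K4me3 peaks were 7 lost in KO against WT mock and 2 gained in KO against WT doxorubicin. Counting a peak within 1 kb as shared gave 1 H3K27me3 gain in KO against WT mock, and for H3K4me3 0 losses with doxorubicin in WT, 3 gains with it in KO and 0 gains in KO against WT doxorubicin. At a difference of 3 kb, H3K27me3 bins lost were 10 with doxorubicin in WT and 3 in KO against WT mock, and H3K4me3 bins were 2 gained with doxorubicin in KO and 1 lost in KO against WT mock. Bins shifted by 5 kb gave 1 lost in KO against WT mock and 1 in KO against WT doxorubicin. A grid shifted by 120 kb gave H3K27me3 ranks of 4, 1 and 7 in WT doxorubicin, KO mock and KO doxorubicin. Using the whole length of edge peaks moved none of 8 covered lengths.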
